A study of Arabidopsis thaliana with 6 samples.

Results

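Plant haemoglobins are haem proteins that bind oxygen and react with nitric oxide, and 3 probe sets for them were measured in Arabidopsis thaliana seeds on 6 microarrays. The members were GLB1 (RefSeq symbol HB1, locus AT2G16060), GLB2 (HB2, AT3G10520) and every other probe set whose title in the authors' deposited table contains the word hemoglobin, which added GLB3 (AT4G32690). They are 3 of 22746 probe sets other than controls, each haemoglobin gene having 1 probe set. Seeds carrying the mutant allele anac089-2 were compared with wild-type seeds of their background accession, Columbia-0 (Col-0). ANAC089 encodes a membrane-anchored transcription factor of the NAC family, and anac089-2 is the only mutant allele measured. All seeds of both groups had been stratified in water for 3 days at 4 °C in darkness, then moved to light at 22 °C and 5 µM abscisic acid (ABA), which restrains germination, and sampled after 3 h. Each group had 3 biological replicates on 1 array each. Because every sample received ABA, a changed response to it and a difference already present without it cannot be told apart.

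Oxygenated plant haemoglobins convert nitric oxide (NO) to nitrate, and a reductase then returns the haem iron to its active state, so that together they keep NO low. GLB1 is a class 1 haemoglobin, with very high affinity for oxygen, whose gene is switched on by low oxygen and by nitrate. GLB2 belongs to class 2, and seeds of Arabidopsis plants that make more of it store more oil. GLB3 is a truncated haemoglobin with the 2-on-2 fold, related to bacterial globins. In Arabidopsis seeds NO breaks dormancy and opposes ABA, partly through the oxygen- and NO-dependent destruction of group VII ethylene response factors.

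The genes of both classic haemoglobins, GLB1 and GLB2, rose in anac089-2 seeds, by 1.37-fold and 2.28-fold. GLB3 had a change of 1.19-fold that did not pass the test. Over all probe sets, 2.94% were higher in anac089-2 at a limma adjusted p under 0.05, and 4.92% changed in either direction. The values are those of robust multi-array averaging (RMA), which normalizes the arrays together and gives 1 log2 level per probe set. Probe sets of different genes bind their targets unequally, so the levels of the 3 genes were not ranked against each other. Whole seeds were used, in which fewer cells of a type and less RNA per cell cannot be told apart.

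GLB1 had log2 levels of 12.85, 12.79 and 12.77 in anac089-2 seeds, against 12.33, 12.33 and 12.40 in wild-type seeds. All 3 anac089-2 arrays lay above all 3 wild-type arrays, as for 15.8% of all probe sets. The gap between the groups, 0.37, was several times the range within either group (0.08 in anac089-2, 0.07 in wild type). The mean was 12.80 ± 0.042 in anac089-2 and 12.35 ± 0.040 in wild type (SD, n = 3 each). The log2 change was 0.45 ± 0.089 (SE), with a 95% interval of 0.24 to 0.66 and a limma adjusted p of 0.0348. In fold terms the interval ran from 1.18 to 1.58.

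A rise of this size was uncommon among probe sets as bright as GLB1. Of 90 probe sets with a mean log2 level of 12 or above, 3 had a change at least as positive as that of GLB1, GLB1 included. The same 3, or 3.33% of the 90, were called higher. The others, named after their values were seen, were probe sets titled histone H3.2 (0.56) and elongation factor 2 (0.47). In either direction 8 (8.89%) were called, and the median change of the 90 was -0.08. Whether features this bright were near saturation could not be read from RMA values.

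GLB2 had log2 levels of 7.53, 6.97 and 7.07 in anac089-2 seeds, against 6.08, 6.24 and 5.69 in wild-type seeds. The groups did not overlap, with anac089-2 replicate 1 the highest array and wild-type replicate 3 the lowest. Non-overlapping groups with the higher values in anac089-2 were found for 15.8% of all probe sets, and separate groups in either direction for 24%. The mean was 7.19 ± 0.299 in anac089-2 and 6.00 ± 0.283 in wild type (SD, n = 3 each). Replicates spread more than for GLB1 within both groups, over a range of 0.56 in anac089-2 and 0.55 in wild type, but the gap between the groups was 0.73. The log2 change was 1.19 ± 0.196 (SE), with a 95% interval of 0.73 to 1.65 and a limma adjusted p of 0.0215. Of 2173 probe sets with a mean level of 6 to 7, 28 (1.29%) had a change at least as positive, GLB2 included. Their median change was 0.17, and 87 of them (4%) were called higher, with 154 (7.09%) called in either direction.

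GLB3 had log2 levels of 6.48, 6.62 and 6.56 in anac089-2 seeds, against 6.71, 6.31 and 5.88 in wild-type seeds. The groups overlapped: wild-type replicate 1 was the highest of all 6 arrays and wild-type replicate 3 the lowest. The mean was 6.55 ± 0.070 in anac089-2 and 6.30 ± 0.415 in wild type (SD, n = 3 each). The log2 change of 0.25 ± 0.200 (SE) had a 95% interval of -0.22 to 0.72 and a limma adjusted p of 0.557. The interval leaves room for a fall of GLB3 to 0.861 of its wild-type level or a 1.65-fold rise, so these arrays do not show that GLB3 was alike in both genotypes. Of the same 2173 probe sets, 41% had a change at least as positive as that of GLB3. Without wild-type replicate 3 the GLB3 change was 0.04 (limma adjusted p = 0.901), and without wild-type replicate 1 it was 0.46 (adjusted p = 0.158).

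The order of the replicates was not shared by the 3 genes. Replicate 1 of anac089-2 was the highest of all arrays for GLB1 and GLB2 but the lowest anac089-2 array for GLB3. Wild-type replicate 3 was the lowest array for GLB2 and GLB3 but the highest wild-type array for GLB1.

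**Figure D1:**
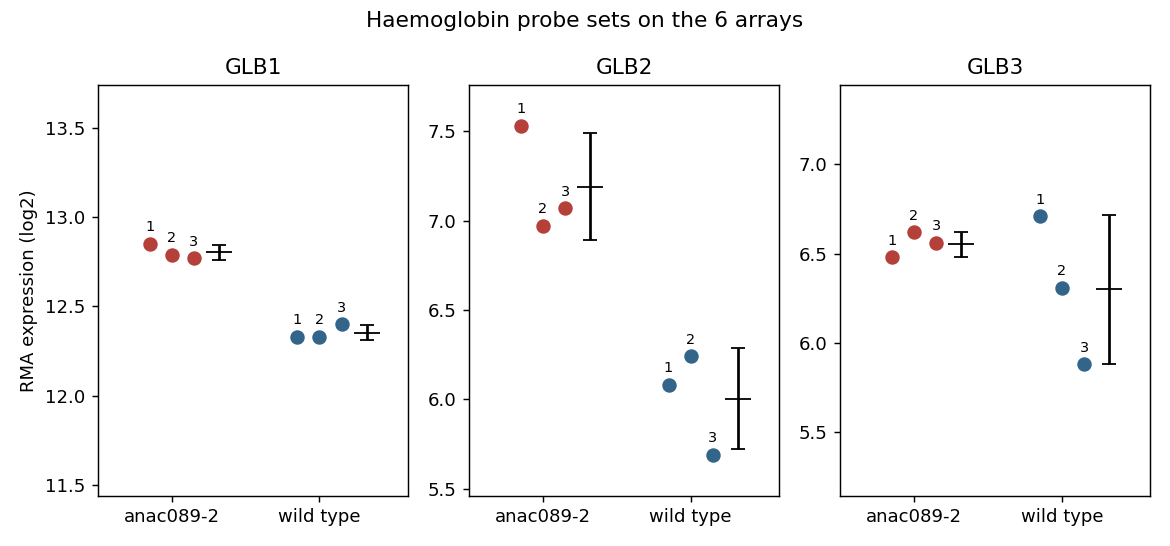
RMA expression (log2) of GLB1, GLB2 and GLB3 on each array, with anac089-2 left and wild type right. Numbers above the points are replicate numbers, and the black marks show the mean ± SD of 3 arrays. The 3 panels span equal log2 ranges at different levels. The groups are separate for GLB1 and GLB2 and overlap for GLB3, where wild-type replicates run from 5.88 to 6.71.

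**Figure D2:**
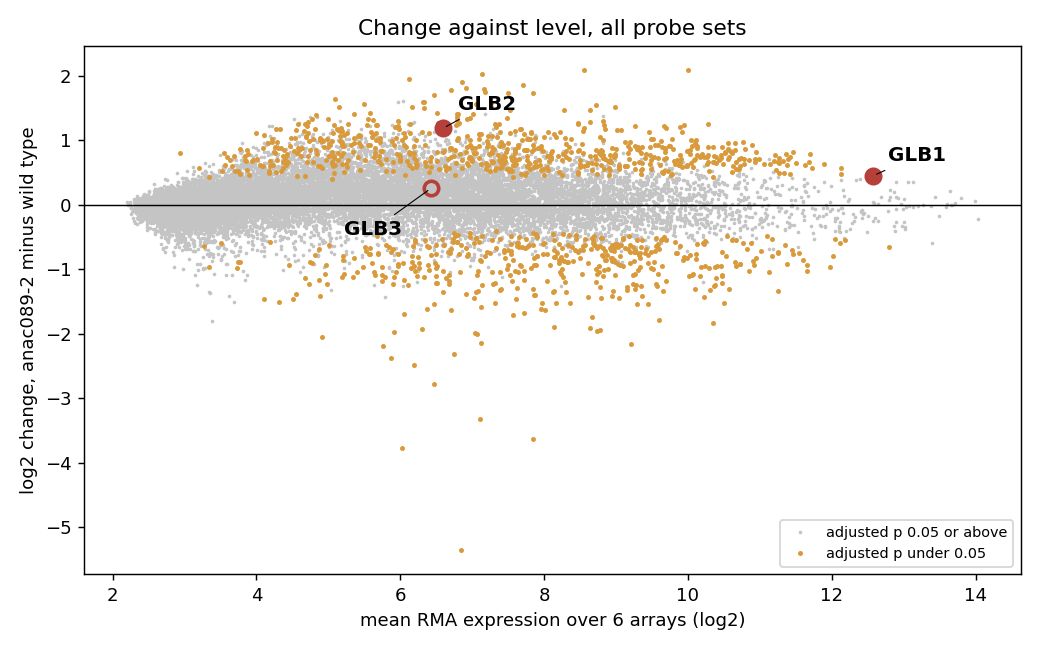
Log2 change (anac089-2 minus wild type) against mean RMA expression (log2) for all 22746 probe sets. Orange points passed a limma adjusted p under 0.05, grey points did not, and the haemoglobins are red. GLB1 lies at the bright end of the arrays with a change of 0.45, GLB2 at a middle level with 1.19, and GLB3, drawn open, at 0.25 inside the grey band.

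The log2 difference between GLB2 and GLB1 on each array showed whether the change of one gene exceeded that of the other. This difference averaged -5.61 ± 0.261 over anac089-2 arrays and -6.35 ± 0.322 over wild-type arrays (SD, n = 3 each). It ran from -5.82 to -5.32 in anac089-2 and from -6.71 to -6.09 in wild type, without overlap. The change of GLB2 thus exceeded that of GLB1 by 0.74 on the log2 scale. A two-sided exact permutation test gave p = 0.1, the smallest p that this test can give with 3 against 3 arrays, so it cannot place the difference under 0.05. With 1 array left out the excess was between 0.56 and 0.87. It was 0.52 with quantile normalization run again and 0.49, more than 1.5 times smaller, with cyclic loess. Median changes of all probe sets also differed by level, at -0.08 for 12 or above, where GLB1 lies, and 0.17 for 6 to 7, where GLB2 lies. Their part in the excess was not tested.

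The authors' deposited table, also from limma, gave log2 changes of 0.45 for GLB1 (FDR 0.0343), 1.18 for GLB2 (FDR 0.0221) and 0.25 for GLB3 (FDR 0.562). The calls for GLB1 and GLB2 depended on having nearly all arrays. Without any 1 array other than wild-type replicate 3, the GLB1 change stayed between 0.43 and 0.47 but its limma adjusted p was 0.0796 to 0.163. Likewise the GLB2 change stayed between 1.02 and 1.30 with an adjusted p of 0.0522 to 0.0990. The count of all probe sets past the threshold fell in these 5 fits as well, to between 4 and 521, against 1120 with all arrays. Wild-type replicate 3 had the lowest array median (3.80, against 3.97 to 4.01 on the others) and the lowest mean correlation with its group (0.982). Without it GLB1 rose by 0.47 (adjusted p = 0.0251) and GLB2 by 1.03 (adjusted p = 0.0222). Centring each array on its median took the GLB1 change to 0.36 and its adjusted p to 0.104.

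**Figure D3:**
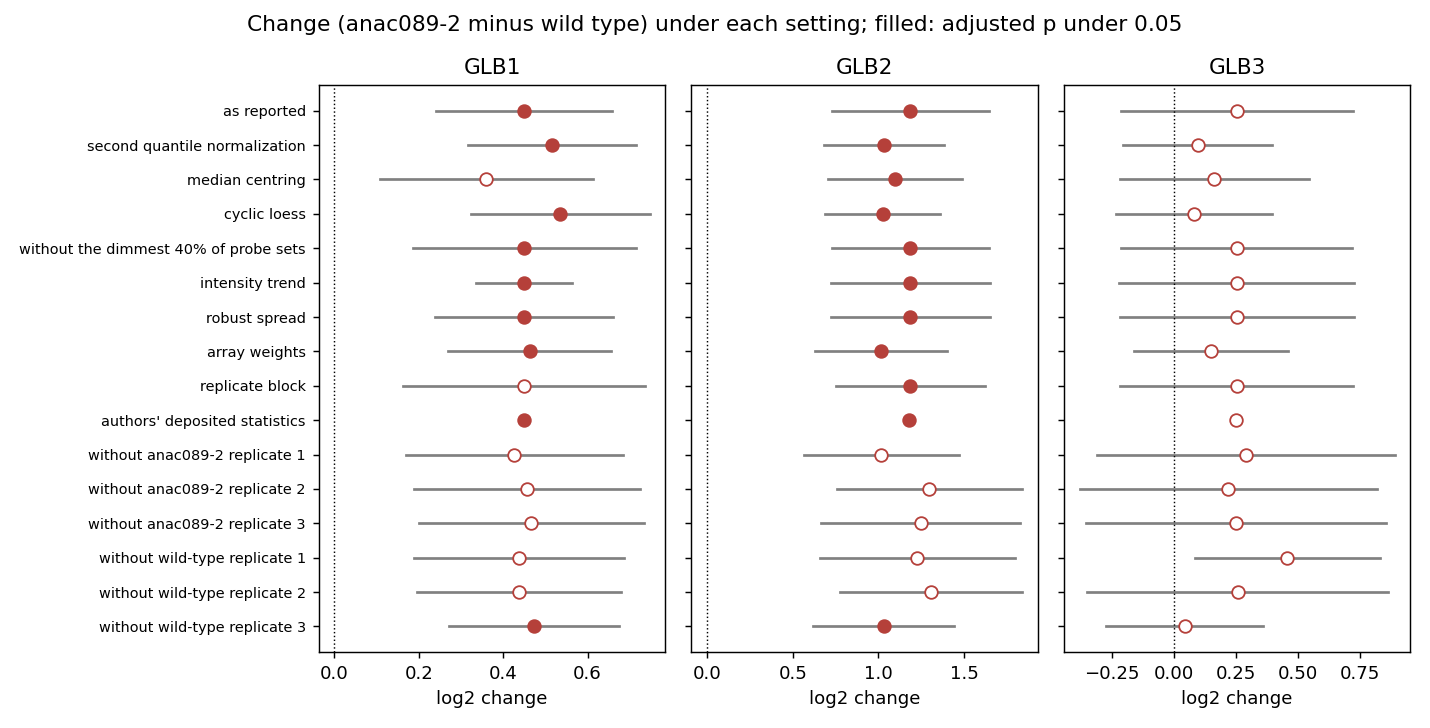
Log2 change (anac089-2 minus wild type) of GLB1, GLB2 and GLB3 with all arrays, under each other processing setting, and with 1 array left out. Grey bars are 95% intervals of the limma fit, absent for the authors' deposited values, and filled points passed an adjusted p under 0.05. Every GLB1 and GLB2 change is positive, while filled points give way to open ones for both genes when any 1 array but wild-type replicate 3 is left out. GLB1 is also open under median centring and with the replicate block.

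Genes that act around the haemoglobins were followed as 6 lists covering NO production and nitrate, removal of NO and S-nitrosothiols, reduction of haemoglobin, NO and oxygen sensing, hypoxia-induced genes, and haem metabolism. Of 68 listed genes, 49 probe sets were found by name or title. Of these 1 rose, 0 fell and 48 did not pass, which is 2.04% of the 49 against 4.92% of all probe sets (2.94% higher, 1.98% lower). The median change over the 49 was -0.02, and over all probe sets it was 0.04. GLB3 counted among the 49 as a member of the removal list. GLB1 and GLB2, which passed, were not counted among the 49, so the share of 2.04% leaves them out.

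RAP2.2, a group VII ethylene response factor that is degraded when oxygen and NO are present, was the one that rose. Its log2 levels were 10.98, 11.02 and 10.85 in anac089-2 seeds, against 10.43, 10.37 and 10.38 in wild-type seeds, with no overlap. Groups were separate in this direction for 15.8% of all probe sets. RAP2.2 rose by 0.56 ± 0.094 on the log2 scale (SE, n = 3 per group; limma adjusted p = 0.0232). Like the haemoglobin calls, this one was lost without any 1 array other than wild-type replicate 3, at adjusted p-values of 0.0550 to 0.123. Related factors did not pass: RAP2.3 had a change of 0.31 (limma adjusted p = 0.147) and RAP2.12 one of -0.02 (adjusted p = 0.939). Over all 7 measured of 14 genes of NO and oxygen sensing, the median change was -0.02, with 3 positive and 4 negative changes. The most negative was that of BIG, -0.37 (limma adjusted p = 0.114), a gene named after its value was seen.

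Monodehydroascorbate reductases restore ascorbate, and in barley such an enzyme can also reduce class 1 haemoglobin. The authors' titles give 5 probe sets to this family, and all 5 had positive changes, with a median of 0.46, though none passed. Under median centring 1 of the 5 turned to -0.02. The most positive, 0.72 ± 0.200 (SE, 3 arrays per group; limma adjusted p = 0.0962), was on a probe set that has only the family's title and no gene name here. That probe set had 7.37, 7.35 and 7.22 in anac089-2 seeds, against 6.81, 6.86 and 6.12 in wild-type seeds. MDAR2 (AT5G03630) had 5.79, 5.89 and 5.53 in anac089-2 seeds, against 5.37, 5.46 and 4.75 in wild-type seeds. Both were without overlap, as were 15.8% of all probe sets in this direction. On the family's remaining probe sets the groups overlapped. MDAR2 had a change of 0.54 (limma adjusted p = 0.198). Wild-type replicate 3 was the lowest of the 6 arrays on 4 of the 5 probe sets. Without it the family's median was 0.28, and the probe set without a gene name rose by 0.48 (limma adjusted p = 0.0307). That probe set also passed with quantile normalization, cyclic loess and array weights.

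Genes that take up nitrate, or that reduce nitrate and nitrite, from which plants can form NO, did not pass. All 5 measured of 11 had negative changes with a median of -0.23. The median was -0.37 without wild-type replicate 3 and -0.14 without wild-type replicate 1. Leaving out anac089-2 replicate 1 or 3 turned 1 of the 5 positive, and leaving out wild-type replicate 2 turned 2. NIA1, a nitrate reductase, had 9.63, 9.59 and 9.53 in anac089-2 seeds, against 9.62, 9.87 and 9.31 in wild-type seeds, a change of -0.02 (limma adjusted p = 0.967). The second nitrate reductase gene, NIA2, had a change of -0.32 (adjusted p = 0.392). The probe set titled ferredoxin-nitrite reductase, the enzyme that turns nitrite into ammonium, had -0.38 (adjusted p = 0.427).

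The removal list had 4 measured genes, GLB3 and 3 that act by other routes, and none of the 4 passed. The probe set titled glutathione-dependent formaldehyde dehydrogenase, the enzyme that also breaks down S-nitrosoglutathione, had 9.79, 10.01 and 9.84 in anac089-2 seeds, against 9.96, 10.03 and 10.25 in wild-type seeds. The groups overlapped, and the change was -0.20 (limma adjusted p = 0.422). PRXIIE (AT3G52960), a peroxiredoxin that removes peroxynitrite, had -0.07 and the thioredoxin titled TRX-H-5, which can take NO groups off proteins, had -0.08.

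GLB1 is itself a hypoxia-induced gene. Of 10 other hypoxia-induced genes measured, out of 17 listed, 0 passed, 4 had positive and 6 negative changes, and the median was -0.20. The median was -0.11 without wild-type replicate 1 and -0.12 without anac089-2 replicate 1. ADH1, the alcohol dehydrogenase of fermentation, had 13.51, 13.47 and 13.50 in anac089-2 seeds, against 13.37, 13.34 and 13.41 in wild-type seeds, a change of 0.12 (limma adjusted p = 0.519). The most negative changes were those of the sucrose synthase SUS1, -0.55 (adjusted p = 0.102), and the pyruvate decarboxylase PDC2, -0.36 (adjusted p = 0.145). SUS1 passed without wild-type replicate 3 (-0.71, limma adjusted p = 0.0161), with array weights and under each of the 3 other normalizations. HUP54 and HUP9 are hypoxia-induced genes of unknown function that were named after their values were seen. Both had groups without overlap, with changes of 0.35 and -0.32. So did ADH1, PDC2, SUS1 and HRA1 (-0.27, also named after its value was seen). Of those 4, only ADH1 was higher in anac089-2. Groups were separate in either direction for 24% of all probe sets. HUP54 passed with an intensity trend, and HUP9 passed without wild-type replicate 3 (-0.44, limma adjusted p = 0.0296) and with array weights.

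Haem synthesis and breakdown, which set the supply of the haemoglobins' cofactor, gave 18 measured of 18 genes, of which 0 passed. Changes were positive for 11 and negative for 7, with a median of 0.03 that turned to -0.10, -0.06 and -0.10 under quantile normalization, median centring and cyclic loess. HEME2, a uroporphyrinogen decarboxylase, had the most positive value, 0.78 (limma adjusted p = 0.272). Its levels were 6.12, 6.08 and 6.12 in anac089-2 seeds, against 5.64, 5.89 and 4.44 in wild-type seeds, where replicate 3 stood apart, and without that array the change was 0.34. HEMA1, 1 form of the glutamyl-tRNA reductase that starts the route, had 0.48 (adjusted p = 0.150) at means under 4 in both groups. HEMA2, titled glutamyl-tRNA reductase 2, had -0.16 (limma adjusted p = 0.607). Its means were 6.48 in anac089-2 and 6.64 in wild type. HY1, the main haem oxygenase, had 0.04 (adjusted p = 0.854).

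**Figure D4:**
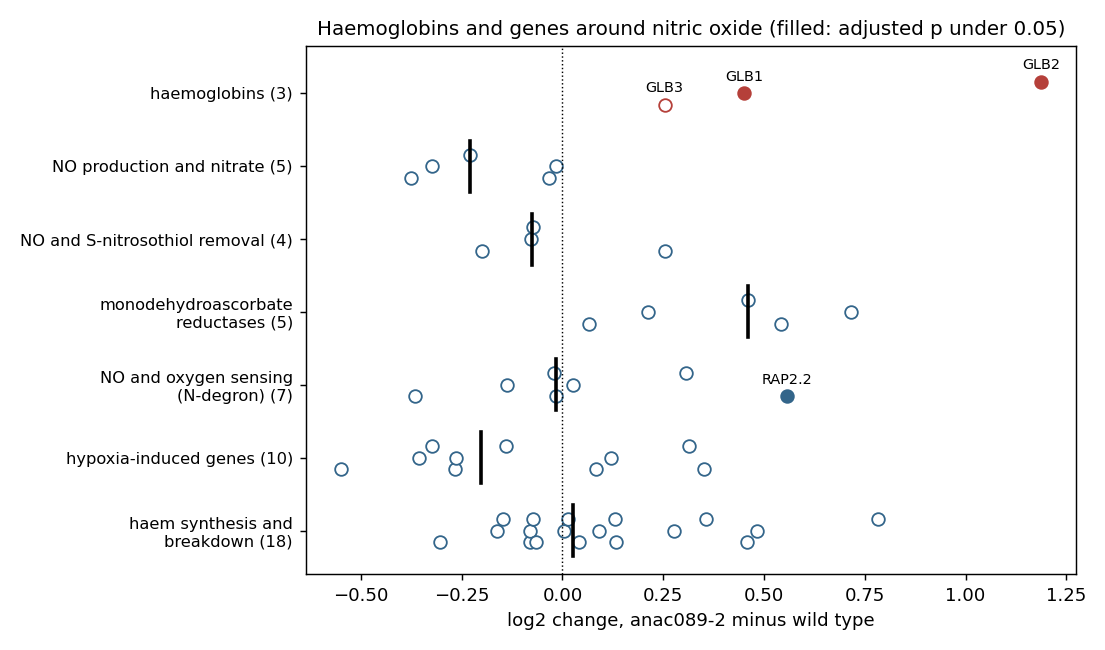
Log2 changes (anac089-2 minus wild type) of the 3 haemoglobins and of the measured probe sets of the 6 lists. There is 1 point per probe set, with the number measured in parentheses. Filled points passed a limma adjusted p under 0.05, and black bars are the medians of the lists. GLB1 and GLB2 are filled among the haemoglobins and RAP2.2 alone among the 49 list probe sets. GLB3 appears again in the removal list.

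The probe sets most like each haemoglobin were found by Pearson's r over the 6 arrays, among named probe sets whose range was at least 0.5 times that of the haemoglobin. With 6 arrays in 2 groups, r mostly reflects the difference between the groups, and it is given as a description. Out of 13077 such probe sets, those most like GLB1 had r of 0.988 to 0.995. They were the genes for S-adenosylmethionine synthetase SAM-2, the large-subunit ribosomal proteins AT5G27850 and BBC1, the mitogen-activated protein kinase MPK1 and the universal stress family protein AT2G47710. Their changes were 0.60, 0.69, 0.73, 1.00 and 0.62. Out of 2730 probe sets, those most like GLB2 had r of 0.996 to 0.998. They were the genes for the expressed protein AT1G20430, the cytochrome P450 CYP71B26, the small-subunit ribosomal protein AT3G10610, the expressed protein AT4G26130 and the p24 family protein AT1G26690. Their changes ran from 0.70 to 0.95.

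Seed markers were present at high levels, with 6 of 8 measured and means of 8.57 to 14.02 in anac089-2 seeds and 8.77 to 13.96 in wild-type seeds. EM1 (-0.79), SESA1 (-0.77) and SESA2 (-0.92) fell, while ABI3 (0.50, limma adjusted p = 0.106), EM6 (0.05) and CRA1 (0.01) did not pass. When any 1 anac089-2 array was left out none of the 3 falls passed, and when wild-type replicate 1 or 2 was left out 1 did. The summed level of the 6 on the linear scale was 33010 to 34718 in anac089-2 arrays and 35275 to 38581 in wild-type arrays. Of 6 listed seedling leaf markers, 3 were measured. RCA, the rubisco activase, rose by 0.99 (limma adjusted p = 0.0215). LHCB5 (0.15) and PORB (-0.07) did not pass and had means under 4 in both groups. RCA did not pass when any 1 anac089-2 array or wild-type replicate 2 was left out. The summed level of the 3 leaf markers was 100.4 to 107.9 in anac089-2 arrays and 52.3 to 69.9 in wild-type arrays. This sum mostly reflects RCA, the brightest of the 3. Markers of endosperm (4 measured) and seed coat (4 measured) did not pass, and 3 of each had means under 4 in both groups. Their summed levels overlapped, at 37.5 to 40.1 in anac089-2 and 34.9 to 43.2 in wild type for endosperm, and at 39.6 to 46.1 in anac089-2 and 37.9 to 44.8 in wild type for seed coat. The part of these marker differences in the haemoglobin changes was not tested. No probe set is paired with ANAC089 in the sources used here, so the mutated gene was not used as a check of the labels.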

How the data were processed

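Seed RNA was turned into biotinylated cRNA for Affymetrix arrays, per the labels' protocols. The deposited log2 values, 1 per probe set and array, came from RMA, per the submitters' processing notes, which also name limma. No version or setting is stated in the sources used. The deposited comparison table adds log2 ratios, p-values and FDR, per the file headers. Its 4 FDR cells without a decimal point were read as 1, and its 6 per-array columns stayed unused.

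After 64 control probe sets were removed, 22746 were fitted with limma (version 3.58.1, R 4.3.3) on all 6 arrays without a block, using lmFit, eBayes and Benjamini-Hochberg adjustment over all of them, with a threshold of 0.05. Changes are anac089-2 minus wild type. Precision is limited by the number of arrays. Names came from the platform annotation with RefSeq TAIR10.1 (13436 probe sets) or from gene names in the authors' titles (1916), and some list genes were found by enzyme title. Where a gene had more than 1 probe set, the brightest stood for it. The monodehydroascorbate reductase probe sets, taken by their shared title, were each counted. Named list genes were all that passed or, where none passed, the 2 with the largest absolute change. Others were named for their role or, where so stated, after their values were seen. The members and lists were chosen with earlier results of these data known. The fit was tested on simulated data. Alternatives were 3 further normalizations, a filter on dim probe sets, other limma settings, the replicate block, the authors' statistics and leaving out each array. Figures were drawn with matplotlib 3.10.9.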

Additional observations from a re-analysis of the deposited data

How the results depend on the processing

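GLB2 passed under all 9 alternatives other than leaving out an array (changes of 1.01 to 1.19, limma adjusted p 0.00754 to 0.0434). GLB1 passed under 7 of the 9, with changes of 0.36 to 0.54 over all 9. The GLB1 call was lost under median centring (0.36, adjusted p = 0.104) and with the replicate number as a block (0.45, adjusted p = 0.113). GLB3 never passed (0.08 to 0.25). With 1 array left out, the changes were 0.43 to 0.47 for GLB1, 1.02 to 1.30 for GLB2 and 0.04 to 0.46 for GLB3, and no direction turned. The count of 1120 probe sets became 1701 with quantile normalization run again, 1784 with cyclic loess, 2070 with array weights, 494 with the replicate block and 45 at an adjusted p under 0.01, and 4 to 1667 with 1 array left out. The count of 1 list probe set became 3, 2 and 3 under quantile normalization, median centring and cyclic loess, and 2 with an intensity trend. It became 4 with array weights, 0 with the replicate block, and 0 to 4 with 1 array left out. RAP2.2 was among the probe sets counted in each of these fits that counted any. The replicate block also ended the RAP2.2 call (adjusted p = 0.0744), but arrays sharing a number did not deviate together (residual correlations of -0.09, -0.06 and -0.14), so the numbers are not taken as pairs. The cause of these shifts was not tested. Fits without an array rest on fewer samples, and the count of all probe sets was 1667 without wild-type replicate 3. RMA values carry no detection calls, so how far each probe set stood above background was not assessed.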
